A study of Apis mellifera with 9 samples.

Results

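In honey bee (Apis mellifera) larvae, 405 of the 15314 features counted by RNA-seq met a rule for a stepwise fall with quercetin in the food. These stepwise-falling genes were chosen from the reads themselves. A gene was taken when its CPM (counts per 1000000 reads on features of the library) averaged at least 5 over the 9 libraries, when all 3 libraries of 0.1 mM quercetin lay below all 3 controls, and when all 3 libraries of 0.25 mM lay below all 3 of 0.1 mM. The mean of the controls also had to be at least 1.5 times that of 0.25 mM, and the mean of 0.1 mM at least 1.2 times that of 0.25 mM. Values of the same libraries that show the fall are therefore a description of what was chosen, and no test is drawn from them. Newly hatched larvae were grafted onto a royal jelly diet with sugars and yeast extract, which every group received. The food held no quercetin in the control group, 0.1 mM in the low-dose group and 0.25 mM in the high-dose group, for 3 days. Each diet had 3 libraries, and each library came from a replication of 10 to 12 larvae, so a library is a pool of animals. The labels call the material whole larvae in one field and midguts in another. The count table gives GB identifiers and no gene names, and 0 of 15314 matched the reference gene table, so tissue markers could not be checked and no gene here is given a name or a role.

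Quercetin is a plant flavonol that reaches bees through pollen, nectar and honey. Bees break such compounds down with detoxification enzymes, mainly cytochrome P450 monooxygenases, and the gut is the tissue that meets the compound first. A gene whose transcript falls a little at a low dose and further at a higher one shows a graded response, which a comparison of a single dose with control cannot separate from a response that is complete at the low dose. In pooled larvae, fewer cells of a type and less RNA per cell cannot be told apart.

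Each library held between 34456449 and 42874091 reads on features. The 3 table columns of the high dose carry the same heading, so the letters a, b and c name these libraries in the order of the table, with no other meaning. Library a stood apart from b and c in most of the 405 genes, and the main ratios are given with all 3 libraries and over b and c alone, a comparison added after the data were seen. Its median log2 ratio to the control mean over the 405 genes was -0.42, against -1.02 in b and -0.96 in c.

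The order of the diets was common in these data before any limit on its size. Among the 8158 features with a mean of at least 5 CPM, 1410, or 17.3%, had all low-dose libraries below all controls. The high-dose libraries lay below all low-dose libraries in 2870, or 35.2%. Both steps held in 949, or 11.6%. The limit of 1.5 between control and the high dose left 408, and the limit of 1.2 between the doses left 405, which is 4.96% of the 8158. The mirror rule for genes that rise stepwise was met by 47 features.

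The number of falling genes depended on how the libraries were scaled. CPM divides by all feature reads, and on that scale the median of all 8158 features stood at a log2 ratio of -0.11 between the high dose and control. The 20 most abundant features took 20.4% ± 0.537 of reads in control and 23.6% ± 0.582 at the high dose (SD, n = 3 each). With these 20 taken out of the totals, an alternative chosen after the data were seen, 262 genes met the falling rule and 108 the mirror rule. Relative to the median of -0.11, the 405 genes, with a median of -0.76, stood 0.65 lower. With TMM factors, which set the bulk of genes level between libraries, the median of all features was -0.04 and 193 genes met the rule, of which 185 were among the 405. With RLE factors 179 met it and with upper-quartile factors 154. Rising genes then numbered 143, 156 and 177, so falling genes outnumbered rising ones with TMM and RLE factors and not with upper-quartile factors. A set of 142 genes met the falling rule under all 4 scalings. All 405 kept their mean order from control to low to high dose under each of the 4 scalings, beside 43.6% of all features on the CPM scale. The rule sets that order on the CPM scale. The smallest ratios there were 1.04 at the first step and 1.22 at the second, so the order could hardly be lost by rescaling. Separation was lost in part. With TMM factors the low dose lay below control without overlap in 325 of the 405, beside 16% of all features of at least 5 CPM on that scale. The high dose lay below the low dose in 286, beside 19%, and 313 still reached the ratio of 1.5, beside 7.22%. The high dose lay below control without overlap in all 405 genes on the CPM scale, which the rule sets, beside 41.5% of all features. It did so in 405 with TMM factors, beside 29.3%, in 404 with RLE factors, beside 28.8%, and in 404 with upper-quartile factors, beside 25.2%.

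**Figure D1:**
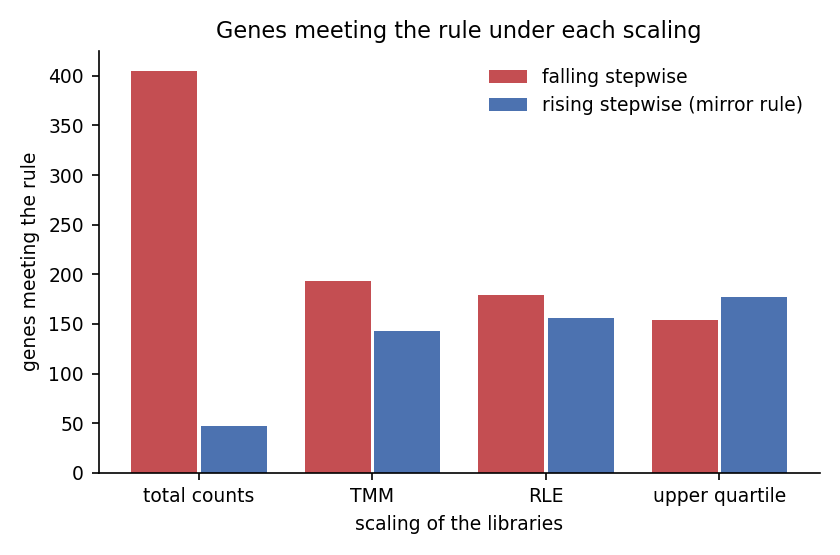
Number of genes that met the falling rule (red) and its mirror for rising genes (blue) under 4 ways of scaling the libraries. Total counts give 405 falling and 47 rising genes, TMM factors 193 and 143, and upper-quartile factors 154 and 177.

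Together the 405 genes held a small and shrinking part of the reads. They took 4.13%, 4.27% and 4.18% of feature reads in control replicates 1, 2 and 3. At the low dose they took 3.61%, 3.58% and 3.57%. At the high dose they took 3.14% in library a, 1.99% in b and 2.04% in c. The low-dose libraries differed from each other by far less than they differed from control, and the high-dose libraries did not form a single level. The means were 4.19% ± 0.0704 in control, 3.59% ± 0.0219 at the low dose and 2.39% ± 0.653 at the high dose (SD, n = 3 each), or 2.01% ± 0.0355 over b and c alone (n = 2). A few heavily read genes held much of this share. Every gene of the set falls by the rule, so the share of the remaining genes had to fall too. The 10 genes with the most reads took 1.63% ± 0.0329, 1.36% ± 0.0113 and 0.905% ± 0.253 in control, low and high dose. Without these 10 the means were 2.57% ± 0.0518, 2.23% ± 0.011 and 1.48% ± 0.4 (SD, n = 3 each).

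Gene by gene, the distribution lay lower at each dose, which the rule sets. The median log2 ratio to the control mean was -0.18, -0.22 and -0.21 in low-dose replicates 1, 2 and 3, where the middle 90% of genes lay between -0.50 and -0.07 across the 3 libraries. In the same libraries the median of all 8158 features was -0.05, -0.04 and 0.03. In library a the 405 genes lay between -0.75 and -0.26 for the middle 90%. In b the same range was -1.83 to -0.69 and in c -1.72 to -0.69. The typical stepwise-falling gene was at 0.494 of its control level in library b, at 0.513 in c and at 0.747 in a. All features together had medians of -0.11, -0.11 and -0.13 in a, b and c. Their spread was narrower in a, where the middle 90% lay between -0.46 and 0.33, than in b, at -1.0 to 0.74, and in c, at -0.97 to 0.67. With TMM factors the medians of the 405 were -0.33, -0.96 and -0.89.

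**Figure D2:**
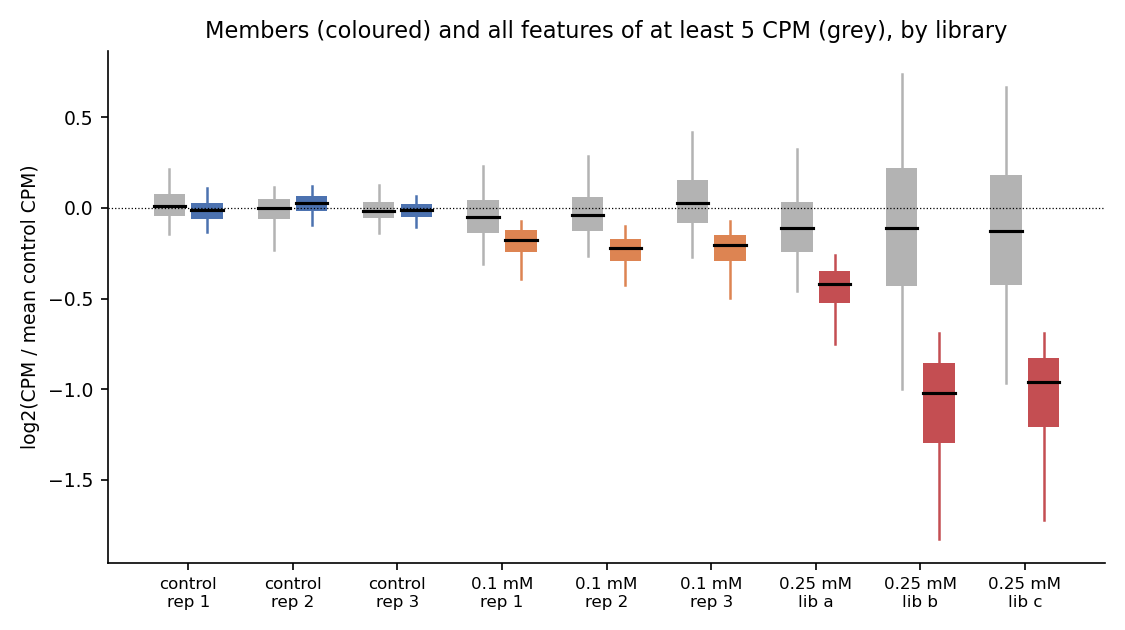
Log2 ratio of CPM to the mean control CPM in each library, for the 405 stepwise-falling genes (coloured by diet) and all 8158 features of at least 5 CPM (grey). Boxes span the middle 50% of genes, lines the middle 90%, and black bars mark medians; the coloured medians go from near 0 in control to -0.42 in library a and -1.02 and -0.96 in libraries b and c.

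The second step was the larger. The ratio of control to low dose had a median of 1.15 and ran from 1.04 to 1.64, and the ratio of low to high dose had a median of 1.49 and ran from 1.22 to 3.49. In 401 of 405 genes the second ratio exceeded the first. Over b and c alone the ratio of low to high dose had a median of 1.73, and it exceeded the first ratio in 401 genes as well. As shares of the whole fall on the log2 scale, the low dose reached a median of 25.5%, with the middle 50% of genes between 21.1% and 31.3%. On the CPM scale the median was 31.6%, beside a low dose that was 0.4 of the high dose. Under 40% of the CPM fall was reached at the low dose in 327 of 405 genes. Set against libraries b and c alone the low dose reached 19.6% of the log2 fall. The size limit of the rule falls on the high dose and on the second step, so a large second step is partly built in. The counts of 401 were not made over all features, and nothing is read from them. Over all 8158 features the median ratio was 1.01 for the first step and 1.07 for the second, which was also 1.07 over b and c alone.

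Most of the falls were modest. The ratio of control to high dose had a median of 1.7, and 76 of 405 genes, or 18.8%, reached 2. Over b and c alone the median was 1.99, beside 1.08 for all features, and 197 genes, or 48.6%, reached 2. A ratio of at least 2.5 was found in 15 genes, of at least 3 in 4, and of at least 4 in 1. At the first step 98 genes, or 24.2%, reached a ratio of 1.2, 29 reached 1.3 and 4 reached 1.5. At the second step 187 reached 1.5 and 16 reached 2.

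**Figure D3:**
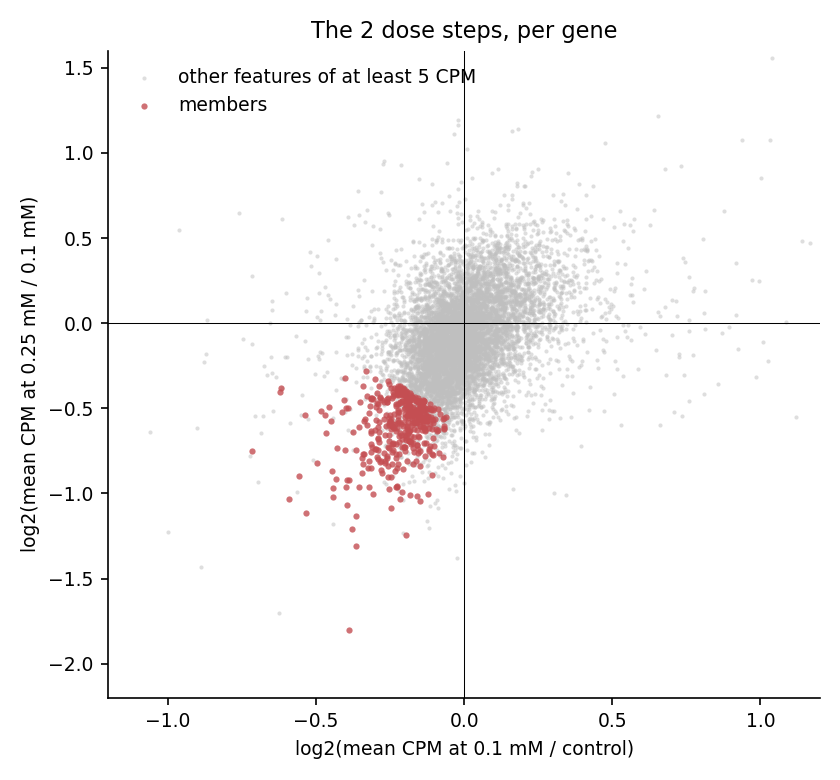
Each point is a feature of at least 5 CPM, with the log2 ratio of low dose to control across and of high to low dose upward; 8142 of 8158 features lie within the axes. The 405 stepwise-falling genes (red) fill the lower left corner, where the vertical distance is larger than the horizontal one in 401 of them. The size limit of the rule falls on the high dose and on the second step, so this is partly built in.

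The genes named here were picked by fixed properties, at most 2 for each. The steepest whole fall was that of GB48512-RA. Its CPM was 1220, 1462 and 1559 in the controls, 1211, 1106 and 924 at the low dose, and 636, 135 and 157 in libraries a, b and c. Control replicate 1 and low-dose replicate 1 nearly met, while b and c stood far below everything else. The means were 1413 ± 174, 1080 ± 145 and 309 ± 283 CPM (SD, n = 3 each), a ratio of control to high dose of 4.57, or 9.68 over b and c and 2.22 in library a alone. With TMM factors its low dose and control overlapped, so that it no longer met the rule. GB41026-RA came next with a ratio of 3.2, or 4.28 over b and c and 2.12 in library a alone. It had 8.07, 7.84 and 9.63 CPM in control, 7.57, 6.68 and 5.57 at the low dose and 4.01, 2.05 and 1.92 in a, b and c. Its lowest count was 75 reads, the fewest of any of the 405 genes in any library.

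The clearest separation of all 3 diets was in GB41303-RA and GB43946-RA, the pair with the widest gap between neighbouring diets. GB41303-RA had 33.7, 36 and 31.1 CPM in control, 23.6, 23 and 23 at the low dose, and 17.8, 6.6 and 7.81 at the high dose. The low-dose libraries were almost level, and even library a was well below them. Its means were 33.6 ± 2.46, 23.2 ± 0.338 and 10.7 ± 6.15 CPM (SD, n = 3 each), with a ratio of control to high dose of 3.13, or 4.67 over b and c. GB43946-RA had 58, 41.6 and 45.6 CPM in control, 34.3, 31.3 and 30.7 at the low dose, and 20.3, 13.5 and 13.3 at the high dose, with a ratio of 3.08, or 3.61 over b and c. Library a lay nearer to b and c than to the low dose in this gene. Both genes met the rule under all 4 scalings.

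The largest first steps belonged to GB48979-RA and GB54556-RA. GB48979-RA had 14.7, 16.9 and 16.9 CPM in control, 6.83, 11.9 and 10.8 at the low dose and 5.85, 6.82 and 4.89 at the high dose. Low-dose replicate 1 reached the level of the high dose in this gene, with 6.83 against 6.82 CPM in library b, a gap of 0.00201 on the log2 scale. The ratio of control to low dose was 1.64. GB54556-RA had 23.8, 20.6 and 19.2 CPM in control, 14.6, 12.7 and 14.1 at the low dose and 11.3, 10.1 and 9.86 at the high dose. Here the libraries a, b and c were close together, and 60.7% of the log2 fall was reached at the low dose. It was 1 of the 4 genes whose first step was the larger, and it met the rule under all 4 scalings.

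The smallest first steps were in GB54330-RA and GB40510-RA. GB54330-RA had 35.7, 36.4 and 35.4 CPM in control, 34.8, 33 and 35.4 at the low dose, and 31.3, 19.6 and 19.4 at the high dose. Its lowest control and its highest low-dose library differed by 0.00148 on the log2 scale, so control and low dose were all but the same. GB40510-RA had 93.1, 94.9 and 95.2 CPM in control, 89.8, 91.2 and 89.4 at the low dose, and 77.8, 48.2 and 52 at the high dose. In this gene the first step was a ratio of 1.05 with tight replicates, and the second a ratio of 1.52. Neither met the rule with TMM factors.

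GB50902-RA and GB40576-RA had the most reads. GB50902-RA had 2862, 2930 and 2988 CPM in control, 2523, 2542 and 2440 at the low dose and 2300, 1693 and 1727 at the high dose. It took 0.293% of feature reads in control and 0.191% at the high dose. GB40576-RA had 2578, 2624 and 2866 CPM in control, 2499, 2413 and 2534 at the low dose and 2327, 1524 and 1499 at the high dose. Both had replicates of control and low dose within a narrow range and library a just under the low dose. Their ratios of control to high dose were 1.53 and 1.51, close to the limit, and with TMM factors they were 1.46 and 1.43, below it. CPM is not divided by gene length, so these figures do not rank genes by transcript level.

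**Figure D4:**
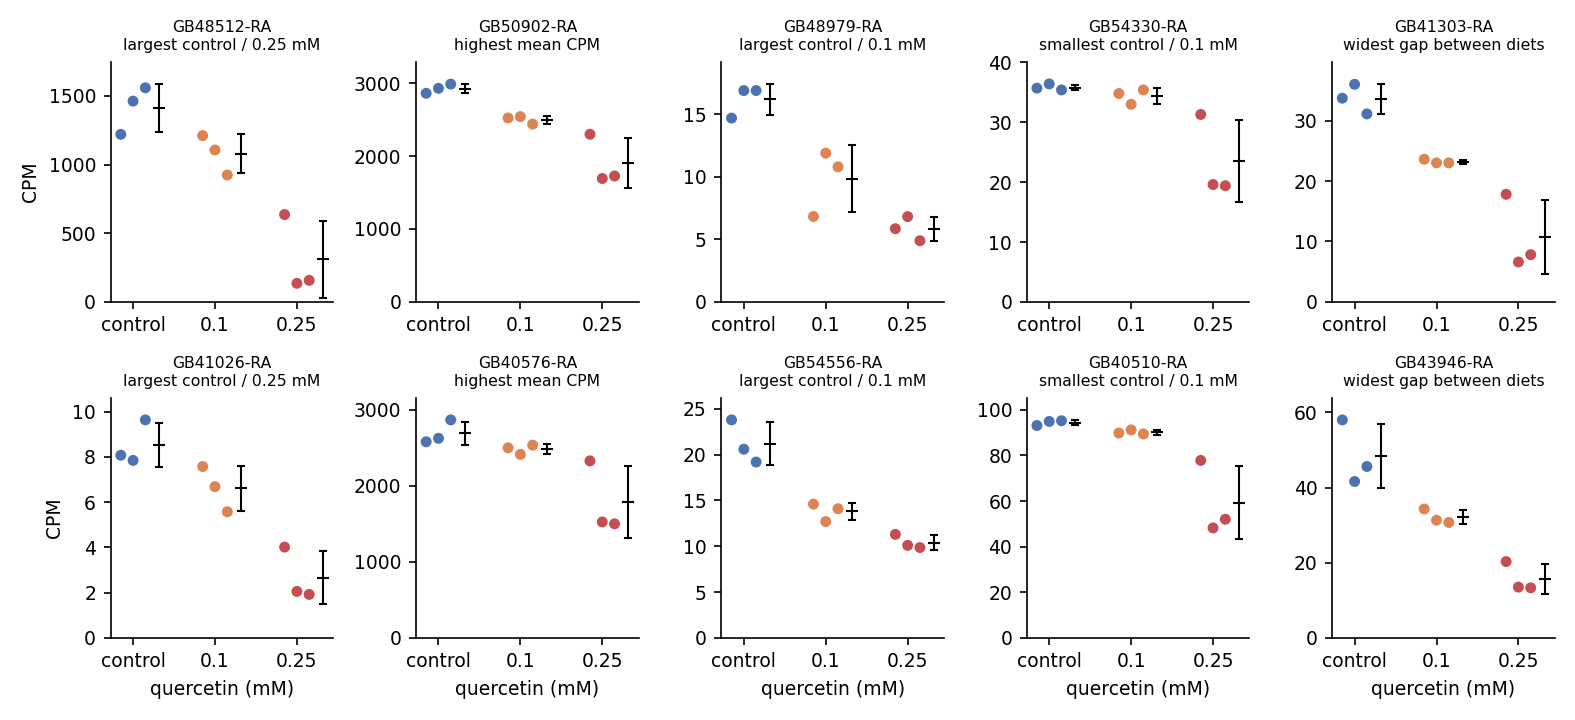
CPM in each of the 9 libraries for the 10 genes named by fixed properties (points, coloured by diet and ordered by replicate number or library letter), with the mean and SD of each diet in black; every vertical axis starts at 0. Library a is the highest of the high-dose points in 9 of the 10 panels, GB48979-RA being the exception.

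At the limits, values ran on without a break. The gene just inside the ratio of 1.5 had means of 111, 95.8 and 74 CPM in control, low and high dose, a ratio of 1.5023, and the gene just outside had 131, 116 and 87.2 CPM, a ratio of 1.4992. The gene just inside the ratio of 1.2 between the doses had 5.02 CPM at the low and 4.12 at the high dose, a ratio of 1.22, and the gene just outside 7.27 and 6.11 CPM, a ratio of 1.19. The lowest mean over 9 libraries inside the rule was 5.15 CPM, and the highest of a gene kept out by this limit alone was 4.96 CPM.

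Many of the separations were narrow. The gap between the lowest control and the highest low-dose library had a median of 0.08 on the log2 scale, and that between the lowest low-dose and the highest high-dose library a median of 0.16. In 126 of 405 genes the first gap was under 0.05, and in 41 the second was. The first gap was smaller than 2 standard errors from read counting alone in 268 genes, or 66.2%, and the second in 145, or 35.8%. Both gaps exceeded that size in 109 genes, or 26.9%. Counting error covers only the sampling of reads, not the differences between pools of larvae. Replicates of a diet were close in the 405 genes outside the high dose, with a median coefficient of variation of 4.3% in control and 4.04% at the low dose, beside 5.39% and 5.83% over all 8158 features. The rule favours a small spread, since diets that overlap are left out.

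Within the high dose the 405 genes split the libraries in a single way. Library a was above both b and c in 399 genes, or 98.5%, where it was above both in 45.5% of all 8158 features and below both in 43.5%. The median ratio of library a to the mean of b and c was 1.5, with the middle 90% of genes between 1.14 and 2.33, and over all features it was 1. All features include genes that rose, while the rule chose genes that fell at the high dose. These shares and ratios are therefore not like for like, and nothing is read from their difference. The coefficient of variation within the high dose was 24.8% in the median gene, against 4.19% between b and c. Over all features these values were 10.6% and 3.83%. On the log2 scale library a had gone a median of 42.3% of the way from control to b and c. It lay nearer to the low-dose mean than to b and c in 359 of the 405 genes. Neither value was computed over all features, and the rule chose these genes for a fall at the high dose, so nothing is read from them. The mean of the low dose was 1.16 times library a in the median gene, beside 1.07 over all features. Whether library a carries another dose than its label says was not tested. The exceptions were 6 genes in which a was not the highest, GB48979-RA among them.

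On the CPM scale, deviations from the diet mean were shared between the genes mainly where library a was included. Over the 9 libraries the mean correlation between pairs of the 405 genes was 0.799, beside 0.0523 for all features, as a description of genes that share libraries and depth. Without library a it was 0.104. Over the control and low-dose libraries it was 0.0831, beside 0.098 for all features. With TMM factors the same value was 0.339, beside 0.0084 for all features. On that scale low-dose replicate 1 was the highest of its diet in 293 of 405 genes, or 72.3%, against 40.2% of all features, and low-dose replicate 3 in 18, or 4.44%, against 32.9%. On the CPM scale the same replicates were highest in 49.6% and 30.1%, against 23.2% and 62% of all features.

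Since every library helped to choose the 405 genes, the rule was applied again with each library left out, and the left-out library was then looked at in the genes chosen without it. Without library a, 632 genes met the rule, and library a lay below all low-dose libraries in 552 of them, or 87.3%, where 54.1% of all features did. In these 632 genes the median log2 ratio to control was -0.19 at the low dose, -0.38 in library a and -0.87 in the mean of b and c. With TMM factors 457 genes met the rule without library a, and a lay below the low dose in 284 of them, or 62.1%, against 29.3% of all features. Without b 316 genes met the rule and b lay below the low dose in 310, or 98.1%, against 50.4% of all features. Without c 324 genes met it and c lay below in all 324, against 52%.

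Left-out controls and low-dose libraries had other conditions to meet, so their shares are not ranked against those of b and c. A low-dose library had to lie between both other diets, while b and c only had to lie below the low dose. With b or c left out, the rule still asked that library a lie below the low dose. Genes chosen without control replicate 1, 2 or 3 had the left-out control above all low-dose libraries in 80.5%, 91.9% and 89.7%, against 37.1%, 36.6% and 29.2% of all features. Genes chosen without low-dose replicate 1, 2 or 3 had the left-out library between the control and high-dose libraries in 78.8%, 95.5% and 86% of cases, against 21.1%, 24.9% and 18.6%. In each of the 9 omissions the share among the chosen genes was above that among all features. The chosen genes had met the rest of the rule, so a higher share is partly built in and nothing is concluded from it. With a low-dose library left out, all high-dose libraries already lay below all controls in every chosen gene. On the CPM scale 41.5% of all features had that order. The 8 other libraries are common to all these genes, which are not independent of each other, so no p is given.

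**Figure D5:**
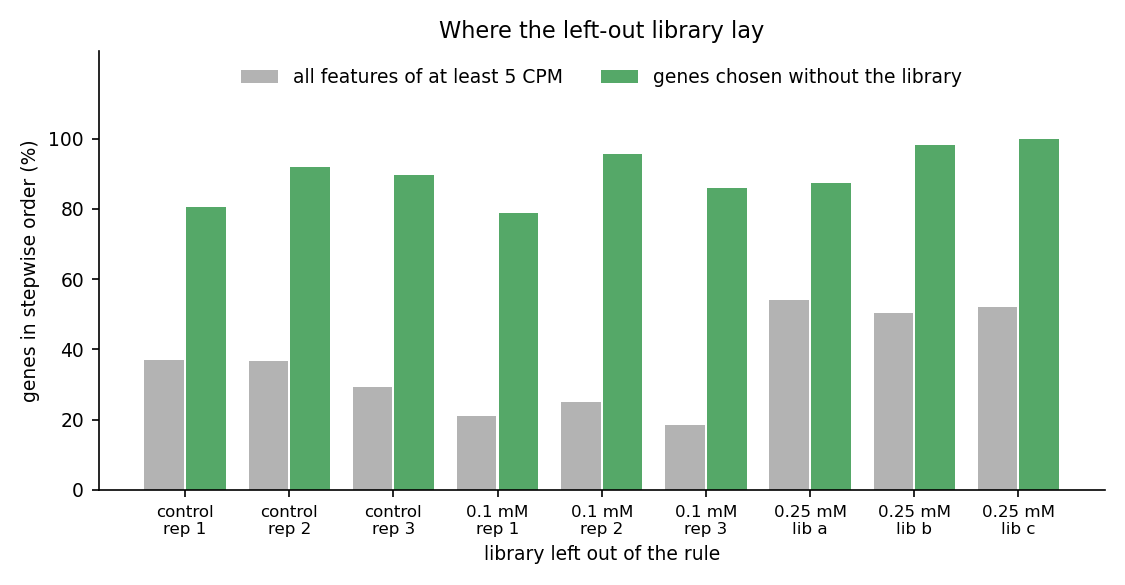
For each library left out of the rule, the percentage of genes in which it lay where the stepwise order puts it, among the genes chosen without it (green) and among all features of at least 5 CPM (grey). The green bars run from 78.8% to 100% and the grey bars from 18.6% to 54.1%. The chosen genes met the rest of the rule, so taller green bars are partly built in.

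In a model over all genes, the fall between control and the high dose was called for nearly all of the 405 genes, while neither single step was called for any. All 405 passed the filter on low counts, which kept 11508 features. Between control and the high dose 404 were called lower (quasi-likelihood test in edgeR, p under 0.05 after Benjamini-Hochberg adjustment), beside 18.5% of all genes tested. A falling trend with dose was called for 405, beside 20%. Between control and the low dose 0 were called lower in edgeR, beside 0% of all genes. An unadjusted p under 0.05 was found for 50 of the 405, where 3.24% of all genes had one with a fall. DESeq2 called 6, beside 0.252% of all genes, and limma-voom 0. Between the doses 0 were called in edgeR, beside 0% of all genes, with an unadjusted p under 0.05 for 402, where 18.6% of all genes had one with a fall. DESeq2 called 337 of the 405 there, beside 9.86% of all genes, and limma-voom 0. The rule had used all of these contrasts in the same libraries, so nothing is read from the counts.

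The number of calls changed with single libraries, among the 405 and among all genes. The 404 became 157 without library c, beside 3.72% of all genes called lower. They became 240 without b, beside 5.75%, and 216 without control replicate 2, beside 5.7%. The median log2 change of the 405 was -0.59, -0.57 and -0.66 in these fits. Without library a all 405 were called, beside 28.6%, with a median of -0.91. Between the doses 403 were then called, beside 24.9% of all genes, where all 9 libraries gave 0. The falling trend was called for 255 without library c, beside 6.16%. The fitted log2 changes of the 405 genes had medians of -0.20 at the low dose against control, -0.50 between the doses and -0.69 at the high dose against control, and over all 11508 genes the medians were -0.0046, -0.0011 and 0.0066.

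The 405 genes were spread over the range of read abundance, with fewer among the heavily read. Of the 1632 features with the fewest reads, from 5.01 to 14.8 CPM, 96 were in the set, or 5.88%. The next classes held 109 of 1632, or 6.68%, and 89 of 1632, or 5.45%. The 1631 features from 50.8 to 102 CPM held 59, or 3.62%, and the 1631 above them 52, or 3.19%. The median ratio of control to high dose was 1.87 in the lowest class and 1.65 in the highest. With TMM factors the shares were lower and fell from class to class, from 3.49% to 1.35%.

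Most genes of the set had identifier numbers apart from each other. Of the 3325 features of at least 5 CPM within 10 numbers of a stepwise-falling gene, 190, or 5.71%, were in the set themselves, where 4.96% of all such features were. Next to a stepwise-falling gene, a window chosen after the data were seen, the share was 7.82%. With steps of at most 2 numbers joined into runs, 321 genes stood alone. The longest run had 4 genes, from GB40882-RA to GB40887-RA, chosen for mention after its values were seen. Their means were 774, 66.4, 105 and 278 CPM in control and 458, 29, 65.2 and 152 at the high dose. The sources used here do not say whether neighbouring numbers are neighbouring genes or whether such genes share reads.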

How the data were processed

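Raw, unnormalised read counts per feature, in 1 table of all libraries, are what the authors deposited. Per the labels' protocols, a TruSeq kit was used to make the libraries. The submitters' processing notes list CASAVA 1.8, HTSeq and edgeR and give no role for any of them. An aligner, a genome build, an annotation and a strand setting were not given in the sources used here. Reads of overlapping or antisense genes may therefore be mixed, and no sequence is printed. Columns were assigned by heading, and those of 0.25 mM show the diet and not the replication. The 5 bookkeeping lines stayed out of totals and tests. By diet, reads on no feature averaged 12.4% to 13.6%.

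CPM is 1000000 times the count divided by the feature total of the library. Calls came from R 4.3.3 with edgeR 4.0.16 (filterByExpr, TMM, quasi-likelihood test, all 9 libraries, 6 residual degrees of freedom), with DESeq2 1.42.0 and limma-voom (limma 3.58.1) as alternatives and Benjamini-Hochberg adjustment over all genes. The fit was also run on simulated counts with known changes, drawn independently for each gene. That simulation held no library that stood apart from its diet, as library a does, so it does not bear on that case. No label ties a replication to a colony, and p-values cover only the spread of these libraries, which may be technical. Members and lists were chosen with earlier results of these data known. Planned lists of tissue markers and enzyme families could not be evaluated, as no identifier has a name. Without names, at most 2 genes were named per property: largest ratio of control to 0.25 mM, largest and smallest ratio of control to 0.1 mM, most reads, and widest gap between diets.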

Additional observations from a re-analysis of the deposited data

How the results depend on the processing

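The number of genes that met the rule was 405. It was 193, 179 and 154 with TMM, RLE and upper-quartile factors, 949 without fold limits, 76 with a ratio of control to 0.25 mM of at least 2, and 262 with totals that leave out the 20 most abundant features. With 1 library left out it ran from 316 to 632, the highest without library a. Members called lower at 0.25 mM against control numbered 404 beside 2133 of all genes, 127 beside 324 at a threshold of 0.01, and 157 to 405 with 1 library left out, beside 430 to 3312. At 0.1 mM against control 0 were called, 1 beside 2 at a threshold of 0.1, 3 beside 6 with only the 6 libraries compared, 6 beside 29 with DESeq2, and 0 to 6 with 1 library left out, the 6 beside 10 without library a. Between the doses 0 were called, 326 beside 1316 at a threshold of 0.1, 337 beside 1135 with DESeq2, and 0 to 403 with 1 library left out, the 403 beside 2882. The trend was called for 405 beside 2304, for 246 beside 656 at a threshold of 0.01, and for 255 to 405 with 1 library left out, beside 713 to 3035. Of all reads, bookkeeping lines included, the members took 2.75%, 2.36% and 1.59% in control, 0.1 mM and 0.25 mM. The within-diet correlation of 0.799 became 0.0831 over control and 0.1 mM libraries, 0.339 there with TMM factors, and 0.104 to 0.828 with 1 library left out. The share of neighbours in the set was 5.71% within 10 numbers, 7.82% within 1 and 8.16% within 2. The omission of the 20 features, the other settings of the correlation, the narrower windows and the use of TMM factors with a library left out were added after seeing the data. The cause of these differences was not tested. The median falls at both steps moved by no more than the spread between replicates under each of 12 alternatives. The ratios of the 10 named genes did the same in 90 recomputed values. At 0.25 mM that spread includes library a, so it is wide and the check could hardly fail there. For the second step it was 0.33 on the log2 scale, and the median fall went from 0.574 to 0.795 without library a. The ratio of GB48512-RA went from 4.57 to 9.68 without it. The replicate block could be fitted for 0.1 mM against control, where it called 0 members lower. Equal replicate numbers there correlated with -0.0818, 0.0994 and -0.123, and control replicate 1 correlated best with replicate 3 of 0.1 mM, at 0.233. Deviations within 3 libraries per diet cannot show whether equal numbers were paired. No paired analysis was possible at 0.25 mM because its columns carry no separate numbers.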
